A study of Mus musculus with 38 samples.

Results

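The transcription factor Blimp1, product of the Prdm1 gene, switches off the gene programme of activated B cells while they turn into antibody-secreting plasma cells. A gene that it holds down can return to the level of the activated B cell when Blimp1 is missing. The genes described here were higher without Blimp1 than in activated B cells, which hardly express it, and than in 2 later stages that do. Whether Blimp1 holds them down was not tested. They were chosen by their levels in 8 RNA libraries of mouse B cells, as genes whose lower Blimp1-deficient library reached 5 RPKM (a read count divided by transcript length and library size) or more and at least 2 times the highest of the 6 other libraries. This held for 59 of 11441 genes with a name that occurs once, 0.516% of them. The direction and size of the rise in Blimp1-deficient cells is therefore how the genes were picked, and it is given below as a description with no test.

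The 8 libraries came from C57BL/6 B cells stimulated in culture over 4 days by lipopolysaccharide (LPS), a component of bacterial outer membranes that drives B cells to divide. The activated B cells were sorted as CD138– GFP–, the control pre-plasmablasts as CD138– GFP+ and the plasmablasts as CD138+ GFP+, and all 3 carried 1 GFP reporter allele of Blimp1, Blimp1(GFP/+), and Cd23(Cre/+), a Cre recombinase expressed in mature B cells. Blimp1-deficient pre-plasmablasts were Blimp1(GFP/fl) Cd23(Cre/+), with a floxed allele in place of the normal one, and were sorted as CD138– GFP+ with high CD22. Genotype and the CD22 gate differ together, so their parts in any level below cannot be told apart. Cre and the GFP allele were common to all 4 groups. In a separate experiment Blimp1(GFP/+) cells, with no Cre in the labels, were cultured for 4 days with LPS and either GSK343, which inhibits the enzyme EZH2, or its solvent DMSO, and CD138– GFP+ pre-plasmablasts were sorted. Plasma cells were Blimp1(GFP/+), sorted directly from mice as CD28+ CD138+ GFP+ cells lacking lineage markers. Each of the 7 groups had 2 libraries, and nothing in the labels says that the 2 came from separate mice or cultures, and a p-value then reflects no more than the spread of these samples, which may be technical. In bulk RNA, a level from few cells with much RNA and one from many cells with little cannot be told apart.

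The labels were checked on marker genes. Prdm1 measured 199 and 171 RPKM in the Blimp1-deficient libraries and 429 and 327 RPKM in the control pre-plasmablast libraries. The files do not show which exons these reads came from, so the level does not check the deletion. Cd22, which was part of the gate, stood at 345 and 309 RPKM without Blimp1 and at 28.5 and 38.3 RPKM in control pre-plasmablasts. Prdm1 was low in the GFP– activated B cells, at 7.45 and 10.7 RPKM. The B cell gene Cd79a measured between 448 and 1405 RPKM in the 8 libraries. Sdc1, which encodes CD138, stood at 0.511 and 0.954 RPKM in Blimp1-deficient cells, 32.7 and 30.5 RPKM in plasmablasts, and 780 and 753 RPKM in plasma cells.

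**Figure D1:**
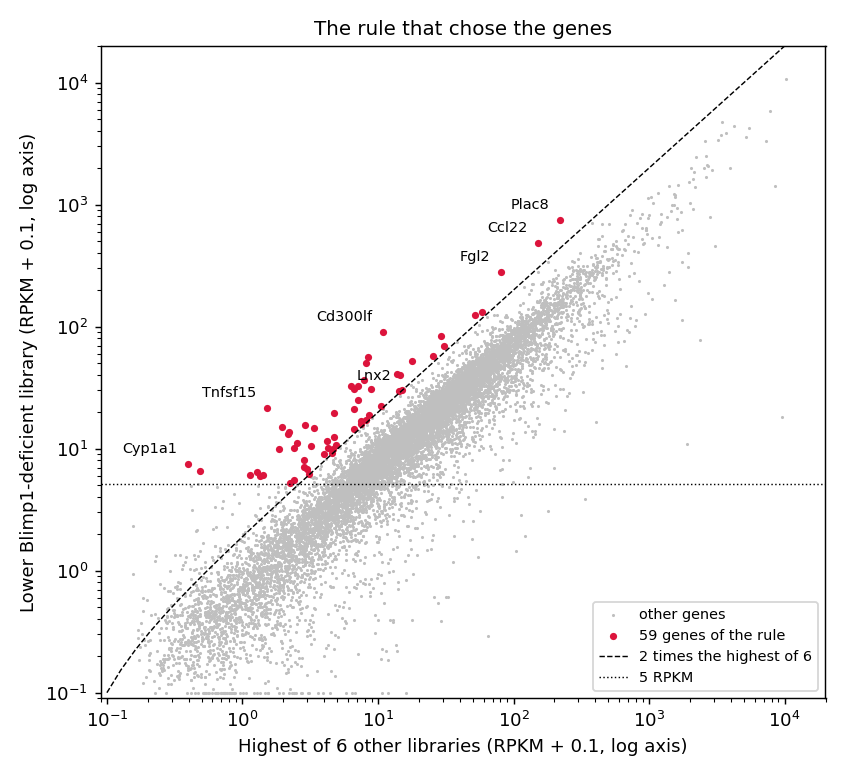
Lower of the 2 Blimp1-deficient libraries (vertical axis) against the highest of the 6 libraries of activated B cells, control pre-plasmablasts and plasmablasts (horizontal axis), in RPKM + 0.1 on log axes, for 11441 genes. The 59 genes (red) lie above the line of 2 times the highest and above 5 RPKM, and Cyp1a1 is the farthest from the line.

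The ratio of the lower Blimp1-deficient library to the highest of the other 6 had a median of 3.20 over the 59 genes and reached 25.04 for Cyp1a1. It was 5 or more for 14 genes and 3 or more for 30. The mean level in Blimp1-deficient cells ran from 5.45 to 887 RPKM with a median of 18.2 RPKM. The genes were not silent elsewhere: for 15 of them another library reached 10 RPKM, and for 30 all 6 others stayed under 5 RPKM. In 2 genes, Cyp1a1 and Igfbp2, all 6 others stayed under 1 RPKM. Of the 3 groups with an intact Blimp1 allele, activated B cells had the highest mean for 39 genes, control pre-plasmablasts for 14 and plasmablasts for 6. For 33 genes the mean fell from activated B cells to pre-plasmablasts and again to plasmablasts. How often genes at large follow these orders was not counted, so the counts only describe the 59. The 2 Blimp1-deficient libraries lay within 1.5-fold of each other for 56 of the 59 genes.

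The same rule applied to each of the other groups found 75 genes for activated B cells (0.656%), 7 for control pre-plasmablasts (0.0612%) and 17 for plasmablasts (0.149%). Just inside the ratio threshold lay Lnx2 at 2.01, Naip2 at 2.03 and Pdcd1lg2 at 2.05, and just outside it lay Cdh17, Ifit1 and Serpine2, with ratios from 1.98 to 1.9997. Just inside the minimum level lay Lysmd2 with a lower library of 5.09 RPKM, 5730409E04Rik with 5.44 RPKM and Serpinc1 with 5.90 RPKM. Cd8b1 with 4.99 RPKM, Cpne2 with 4.92 RPKM and Nqo1 with 4.91 RPKM fell just short of it.

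**Figure D2:**
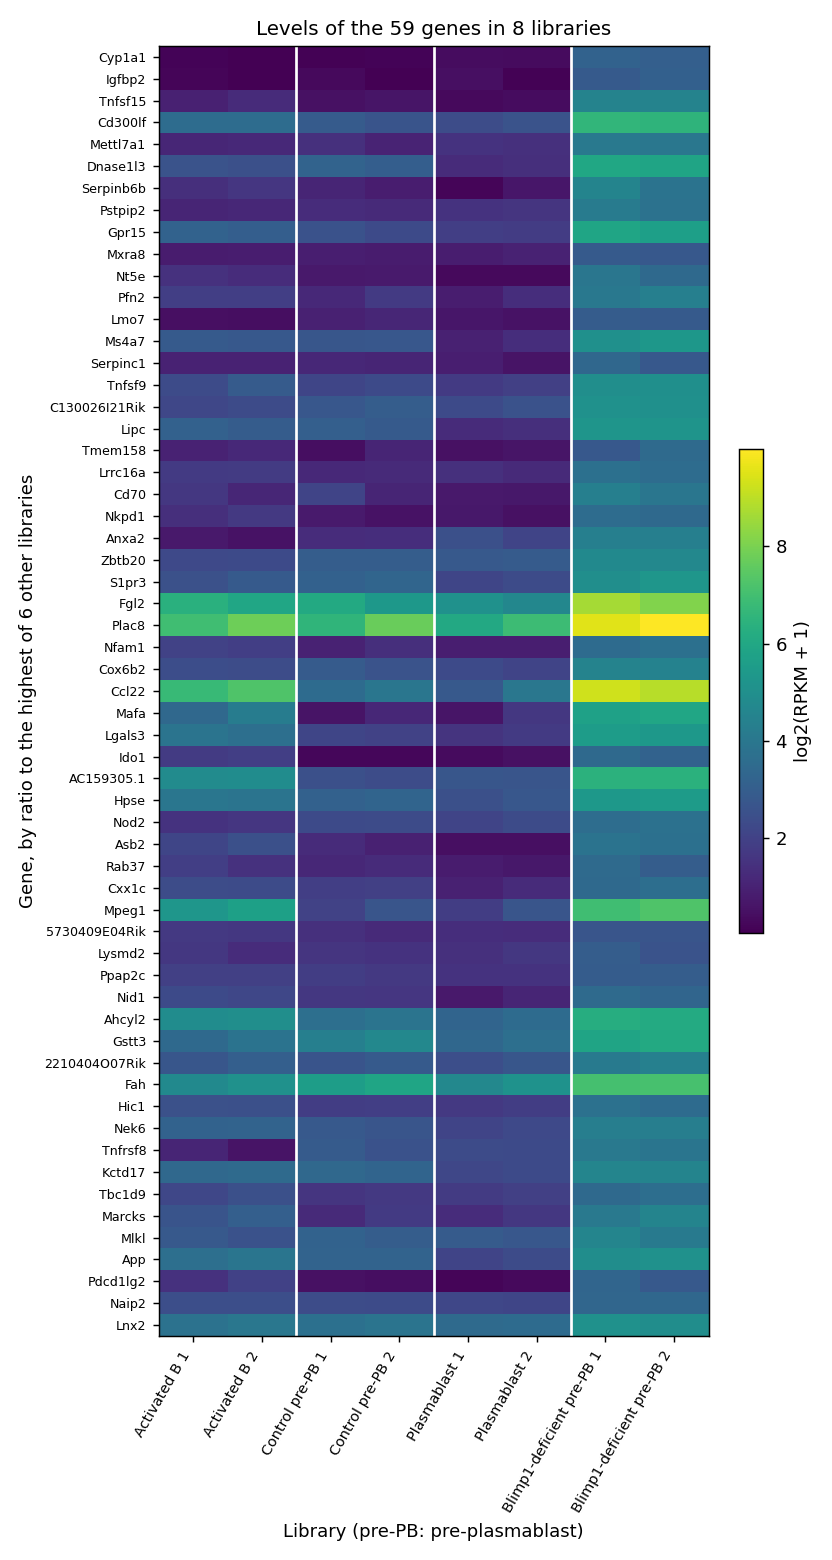
Level of each of the 59 genes (rows, ordered by the ratio that chose them) in 8 libraries (columns), as log2(RPKM + 1) in colour. The 2 Blimp1-deficient columns on the right are the brightest in every row, and Ccl22, Mpeg1, Mafa and AC159305.1 are next brightest in the 2 columns of activated B cells.

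Promoter sequences were read for the members from RefSeq on build GRCm38.p6 (the files themselves use mm9), and 46 of the 59 genes had one or more. A promoter here is 250 bases before to 50 bases after the annotated start. Short motifs, 5 in all, were searched on both strands. AGNGAAAG is the core of the sequence that Blimp1 binds. The interferon response element was taken as a pair of GAAA runs with a spacer of 2 bases. In the composite element of ETS and IRF factors, GGAA replaces the leading run of that pair. The others were TNGCGTG, bound by the aryl hydrocarbon receptor, and TGANTCA, a loose form of the AP-1 element, which is TGAGTCA or TGACTCA. The Blimp1 core and the interferon and composite elements share the letters GAAA and can overlap. The AP-1 motif stood in 8 of the members' 59 promoters (13.6%), against 4.86% of 11407 promoters of measured genes and 7.81% of all 32851 promoters. The Blimp1 core stood in 4 (6.78%), against 7.78% of measured genes' promoters and 8.63% of all. The receptor motif stood in 4 (6.78%), against 8.10% and 5.07%, and the other motifs in 1 promoter each (1.69%), against 3.00% and 3.44% for the interferon element and 2.31% and 2.72% for the composite element. A match is a run of letters and not a binding site, and a missing match says only that the letters are not in this window.

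The matches to TGANTCA are shown because, of the 5 motifs, it alone had a larger share in the members' promoters than in both backgrounds. The middle base is G in Igfbp2, Tnfrsf8, Fgl2, Ahcyl2 and Anxa2. It is A in Nfam1 and T in Gpr15 and Ms4a7, which match only the loose form. The stricter form was not counted in the background promoters. Each line gives up to 40 bases on either side of the match, before the start site only, on the strand of the gene, with the match in capitals.
Igfbp2, chr1:72825308-72825386 (+): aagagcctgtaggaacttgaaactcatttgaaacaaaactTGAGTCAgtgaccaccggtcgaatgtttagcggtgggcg
Tnfrsf8, chr4:145315250-145315336 (-): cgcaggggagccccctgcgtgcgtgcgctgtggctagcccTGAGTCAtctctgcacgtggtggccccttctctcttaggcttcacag
Fgl2, chr5:21372617-21372672 (+): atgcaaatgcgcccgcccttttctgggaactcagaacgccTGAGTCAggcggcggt
Ahcyl2, chr6:29768298-29768384 (+): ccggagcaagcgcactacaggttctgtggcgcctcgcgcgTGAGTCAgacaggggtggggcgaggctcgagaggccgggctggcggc
Anxa2, chr9:69453548-69453634 (+): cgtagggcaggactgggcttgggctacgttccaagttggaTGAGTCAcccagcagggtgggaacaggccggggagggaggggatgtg
Nfam1, chr15:83023141-83023227 (-): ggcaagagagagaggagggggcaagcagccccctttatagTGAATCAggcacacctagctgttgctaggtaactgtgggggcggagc
Gpr15, chr16:58719025-58719111 (-): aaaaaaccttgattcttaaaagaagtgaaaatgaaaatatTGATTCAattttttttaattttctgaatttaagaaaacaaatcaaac
Ms4a7, chr19:11334730-11334816 (-): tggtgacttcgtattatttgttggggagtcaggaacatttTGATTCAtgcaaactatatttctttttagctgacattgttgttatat

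The motif began 16 bases before the start in Fgl2, 39 in Igfbp2, 49 in Nfam1, 81 in Ms4a7, 95 in Anxa2, 105 in Ahcyl2, 132 in Tnfrsf8 and 199 in Gpr15. The Blimp1 core lay before the start in the promoters of Ppap2c (now Plpp2) and Nfam1, which are shown because a Blimp1 motif bears on how the genes were chosen. In Ppap2c the match is on the opposite strand and so reads in reverse complement.
Ppap2c, chr10:79533798-79533885 (-): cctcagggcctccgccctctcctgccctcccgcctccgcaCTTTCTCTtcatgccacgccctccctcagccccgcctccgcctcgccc
Nfam1, chr15:83023297-83023384 (-): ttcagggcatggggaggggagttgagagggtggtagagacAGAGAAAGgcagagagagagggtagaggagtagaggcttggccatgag

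The promoters differed in base composition too. CpG content, as observed over expected from the bases, had a median of 0.354 over the 46 members with a promoter and 0.764 over the 8930 measured genes with one. It was below 0.4 in 25 members (54.3%) and in 12.2% of measured genes. The median GC content was 56% in the members and 61% in measured genes. CpG-poor promoters are typical of genes used in few cell types, as background.

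**Figure D3:**
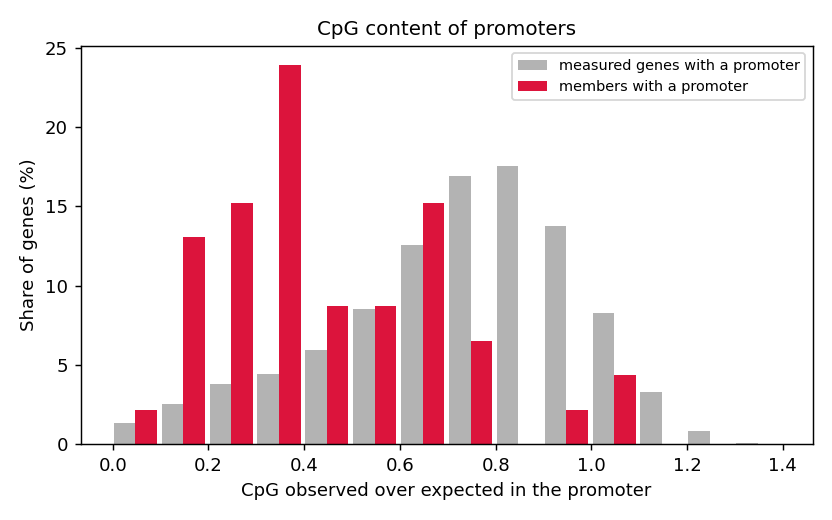
Share of genes (vertical axis, percent) in each 0.1-wide class of promoter CpG content, observed over expected (horizontal axis), for the 46 members with a promoter (red) and the 8930 measured genes with one (grey). The members lean to the left, with 25 of them below 0.4, while the measured genes have a median of 0.764.

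A group of 9 genes encodes ligands, receptors or enzymes that act on T cells. The TNF superfamily ligands Tnfsf15, Tnfsf9 and Cd70 were among the 59. Tnfsf15, which encodes TL1A and costimulates T cells, measured 21.6 and 21.7 RPKM in the Blimp1-deficient libraries, 0.945 and 1.42 RPKM in activated B cells, 0.403 and 0.525 RPKM in control pre-plasmablasts, and 0.242 and 0.321 RPKM in plasmablasts. Both Blimp1-deficient libraries stood far above the rest, and activated B cells were next. Tnfsf9, which encodes the ligand of 4-1BB, measured 30.6 and 31.5 RPKM without Blimp1, 4.07 and 6.55 RPKM in activated B cells, 3.40 and 3.94 RPKM in pre-plasmablasts, and 2.38 and 2.80 RPKM in plasmablasts. Cd70, the ligand of CD27, measured 19.3 and 14.6 RPKM without Blimp1, 2.18 and 1.20 RPKM in activated B cells, 3.29 and 1.11 RPKM in pre-plasmablasts, and 0.648 and 0.624 RPKM in plasmablasts. Tnfsf9 and Cd70 are neighbours on chromosome 17, with no annotated protein-coding gene between them. The next gene of the same family there, Tnfsf14, reached only 1.46 and 0.598 RPKM without Blimp1.

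Over the 11 measured TNF superfamily ligands, a list written after the values were seen, 5 had both Blimp1-deficient libraries above all 6 others, against 12.8% of all genes. Tnfsf15, Tnfsf9 and Cd70 are among the 5 by the rule, so the count is no test of the family. Tnfsf8, the ligand of CD30, was a 4th ligand with a ratio above 2 (2.38), and missed the rule because its lower library had 4.64 RPKM. Its receptor Tnfrsf8, which encodes CD30, was a member, with 15.9 and 14.4 RPKM without Blimp1 and 6.57 and 4.91 RPKM in control pre-plasmablasts. Tnfrsf8 was lowest in activated B cells, at 1.15 and 0.507 RPKM. Other ligands were highest in activated B cells: Tnf stood at 22.5 and 15.0 RPKM there and at 5.13 and 5.06 RPKM without Blimp1.

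Ccl22, a chemokine that attracts T cells through CCR4, was among the most abundant members. It measured 625 and 489 RPKM without Blimp1, 106 and 153 RPKM in activated B cells, 10.5 and 14.7 RPKM in control pre-plasmablasts, and 6.08 and 15.0 RPKM in plasmablasts. Activated B cells lay above control pre-plasmablasts and plasmablasts, and the Blimp1-deficient cells lay above activated B cells. Fgl2, which encodes a fibrinogen-like protein with a secreted form that dampens T cell responses, measured 407 and 279.9 RPKM without Blimp1 and between 24.2 and 81.3 RPKM in the other 6 libraries. Its gene overlaps Ccdc146, with which reads may be shared. Nt5e encodes CD73, which makes adenosine, and measured 14.4 and 9.92 RPKM without Blimp1 and at most 1.77 RPKM elsewhere. Pdcd1lg2, which encodes PD-L2, a ligand of PD-1, measured 8.73 and 6.14 RPKM without Blimp1, 1.79 and 2.99 RPKM in activated B cells, and at most 0.438 RPKM in the 4 other libraries. Ido1, a tryptophan-degrading enzyme, followed a like order, with 10.1 and 8.0 RPKM without Blimp1, 2.45 and 2.74 RPKM in activated B cells, and at most 0.412 RPKM elsewhere. Nt5e and Pdcd1lg2, which mark memory B cells in mice, were the 2 members in a list of 23 measured germinal centre and memory B cell genes. In that list 6 genes, Nt5e and Pdcd1lg2 among them by the rule, had both Blimp1-deficient libraries above all others, against 12.8% of all genes. Bcl6 was lower without Blimp1 than in every other library, at 1.73 and 2.41 RPKM.

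A further 11 members are known from innate or myeloid cells. Cd300lf, an inhibitory receptor of myeloid cells, measured 96.2 and 89.9 RPKM without Blimp1, 10.8 and 10.9 RPKM in activated B cells, 6.63 and 5.18 RPKM in pre-plasmablasts, and 4.12 and 5.08 RPKM in plasmablasts. Rab37, a small GTPase of secretory vesicles whose gene overlaps Cd300lf on chromosome 11, measured 10.3 and 7.01 RPKM without Blimp1 and at most 2.73 RPKM elsewhere. Without knowing whether counting used strand, reads of these overlapping genes may be shared between them. Ms4a7, a tetraspan membrane protein of macrophages, measured 32.4 and 38.7 RPKM without Blimp1, between 5.53 and 6.27 RPKM in activated B cells and pre-plasmablasts, and 0.953 and 1.55 RPKM in plasmablasts. It was the only member among 6 measured genes of its family. Mpeg1, a pore-forming protein of phagocytes, measured 124 and 154 RPKM without Blimp1, 38.1 and 51.8 RPKM in activated B cells, and 2.69 to 5.48 RPKM in the 4 other libraries.

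Plac8, a small protein abundant in myeloid cells, had the highest level of all members. It measured 752 and 1022 RPKM without Blimp1, 123 and 221 RPKM in activated B cells, 94.4 and 213 RPKM in pre-plasmablasts, and 65.7 and 116 RPKM in plasmablasts. In each group the second library was the higher one, and the lower Blimp1-deficient library still stood above every other. Heparanase, encoded by Hpse near Plac8 on chromosome 5 with only Coq2 between them, measured 40.2 and 44.2 RPKM without Blimp1 and at most 14.5 RPKM elsewhere. Lgals3, which encodes galectin-3, measured 45.4 and 40.5 RPKM without Blimp1, 13.8 and 12.1 RPKM in activated B cells, and 1.94 to 3.39 RPKM elsewhere. Anxa2, a membrane-binding annexin, had another order: 19.4 and 19.3 RPKM without Blimp1, then 4.60 and 3.34 RPKM in plasmablasts, 1.51 and 1.55 RPKM in pre-plasmablasts and 0.666 and 0.473 RPKM in activated B cells.

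Nod2 and Naip2, intracellular sensors of bacterial products, and Mlkl, the executor of necroptosis, were members with smaller ratios of 2.78, 2.03 and 2.10. Nod2 measured 11.4 and 12.8 RPKM without Blimp1 and at most 4.09 RPKM elsewhere. In a list of 12 measured NOD-like receptors, written after the values were seen, 7 had both Blimp1-deficient libraries above the other 6, against 12.8% of all genes. Nod2 and Naip2 are among the 7 by the rule, so the count is a description with no test. Naip5 had a ratio of 2.13 but stood at 3.69 and 3.54 RPKM, below the minimum. Naip2 has close paralogs, so its level is less certain. Pstpip2, an actin-associated adaptor that restrains inflammation, measured 17.5 and 13.1 RPKM without Blimp1 and at most 2.06 RPKM elsewhere, and Nfam1, an immune receptor with a signalling tail, measured 10.5 and 12.3 RPKM and at most 3.08 RPKM elsewhere.

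None of the 59 genes was in the marker lists of T cells, natural killer cells, myeloid cells, dendritic cells, mast cells or erythroid cells. The 8 measured myeloid markers summed to 185 and 225 RPKM in the Blimp1-deficient libraries, 193 and 205 RPKM in activated B cells, 153 and 231 RPKM in pre-plasmablasts, and 172 and 282 RPKM in plasmablasts. The sums overlapped between groups. Of the 8, 2 had both Blimp1-deficient libraries above all 6 others, against 12.8% of all genes. The median ratio over the 8 was 0.785. These 2 were Emr1, which encodes F4/80, and Cd68. Emr1 measured 3.54 and 4.68 RPKM without Blimp1 and at most 1.8 RPKM elsewhere, and Cd68 measured 40.6 and 43.5 RPKM against at most 31.3 RPKM. The 9 measured T cell markers summed to 311 and 267 RPKM without Blimp1 and to 130 to 211 RPKM elsewhere. Most of that sum was Cd2, at 295 and 249.3 RPKM, which B cells also express. Cd8b1 measured 4.99 and 5.09 RPKM without Blimp1 and at most 0.371 RPKM elsewhere, while 5 of the 9 T cell markers stayed under 1 RPKM in both Blimp1-deficient libraries. The 8 measured dendritic cell markers summed to 402 and 354 RPKM without Blimp1 and to 373 to 615 RPKM elsewhere, with Itgax at 0.44 RPKM or less in all 8 libraries. None of the myeloid or dendritic markers was listed at 0 in a Blimp1-deficient library. The 2 measured natural killer markers summed to 2.70 and 1.93 RPKM without Blimp1 and 2.05 and 1.54 RPKM in activated B cells. Their sums were 3.68 and 6.18 RPKM in control pre-plasmablasts and 8.01 and 12.2 RPKM in plasmablasts. The single mast cell marker measured 0.523 and 0.428 RPKM without Blimp1 and at most 0.534 RPKM elsewhere. The 3 erythroid markers summed to 15.0 and 13.5 RPKM without Blimp1 and 18.6 and 13.1 RPKM in activated B cells. Those sums were lower in control pre-plasmablasts, at 3.45 and 4.21 RPKM, and in plasmablasts, at 2.15 and 2.36 RPKM. The part of other cell types in the members' levels was not tested.

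Enzymes made up 9 members. Cyp1a1, a cytochrome P450 induced through the aryl hydrocarbon receptor, had the highest ratio of all, with 7.98 and 7.37 RPKM without Blimp1 and between 0.0427 and 0.294 RPKM in the 6 other libraries. Other genes tied to this receptor had smaller ratios. Ahr, the receptor itself, measured 10.1 and 8.41 RPKM without Blimp1, 5.30 and 6.09 RPKM in plasmablasts and 1.5 and 1.63 RPKM in activated B cells. Nqo1, a quinone reductase, measured 6.28 and 4.91 RPKM without Blimp1 and at most 2.13 RPKM elsewhere. Ahrr, the receptor's repressor, measured 1.84 and 1.96 RPKM without Blimp1 and at most 1.41 RPKM elsewhere, and Tiparp was no higher than in plasmablasts. In this list of 9 measured genes, written after the values were seen, 4 had both Blimp1-deficient libraries above all others, against 12.8% of all genes. Cyp1a1 is among the 4 by the rule, so the count is a description with no test.

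Dnase1l3, which degrades DNA outside the cell, measured 62.1 and 56.6 RPKM without Blimp1, 8.39 and 7.15 RPKM in control pre-plasmablasts, 5.00 and 4.61 RPKM in activated B cells, and 1.41 and 1.63 RPKM in plasmablasts. Lipc, hepatic lipase, measured 37.1 and 36.1 RPKM without Blimp1 and at most 7.78 RPKM elsewhere. Fah, the last enzyme of tyrosine breakdown, measured 132 and 137 RPKM without Blimp1 and was next highest in control pre-plasmablasts, at 46.7 and 58.7 RPKM. Mettl7a1, a methyltransferase-like protein of lipid droplets, measured 15.7 and 15.0 RPKM without Blimp1 and between 1.05 and 1.87 RPKM elsewhere. Gstt3, a glutathione transferase, measured 57.0 and 67.9 RPKM without Blimp1 and at most 25.1 RPKM elsewhere. Mettl7a1 and Gstt3 have close paralogs, and their levels are less certain for that reason. Ahcyl2, Ppap2c and Cox6b2 completed this group, with ratios of 2.28, 2.33 and 3.22.

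Receptors and secreted or matrix proteins made up 7 members. Gpr15, a homing receptor of lymphocytes for the large intestine and skin, measured 58.1 and 50.3 RPKM without Blimp1, 7.99 and 7.11 RPKM in activated B cells, 4.84 and 3.88 RPKM in pre-plasmablasts, and 2.76 and 2.54 RPKM in plasmablasts. S1pr3, a receptor for sphingosine-1-phosphate, measured 30.7 and 38.2 RPKM without Blimp1 and at most 8.84 RPKM elsewhere. It was the only member of 4 measured receptors of this lipid, and S1pr1, S1pr2 and S1pr4 were not above all the other libraries. Igfbp2, which binds insulin-like growth factors, measured 6.41 and 7.65 RPKM without Blimp1 and at most 0.389 RPKM elsewhere, the second highest ratio at 16.5. App, the amyloid precursor protein, measured 29.4 and 32.6 RPKM without Blimp1, 11.8 and 14.2 RPKM in activated B cells, and 3.26 and 4.05 RPKM in plasmablasts. Mxra8, a matrix remodelling protein, and Nid1, the basement membrane protein nidogen-1, had ratios of 5.76 and 2.29.

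Transcription factors were few. Mafa, known as an activator of the insulin gene in pancreatic beta cells, measured 52.7 and 60.6 RPKM without Blimp1, 9.80 and 17.7 RPKM in activated B cells, and 0.514 to 2.17 RPKM in the 4 other libraries. It was the only member of 5 measured Maf factors, and Maf itself stood at 0.00858 and 0.0382 RPKM in the Blimp1-deficient libraries. Zbtb20, a zinc finger factor that supports plasma cell survival, measured 26.3 and 24.8 RPKM without Blimp1, 7.01 and 6.92 RPKM in pre-plasmablasts, 6.16 and 6.63 RPKM in plasmablasts, and 3.81 and 3.96 RPKM in activated B cells. Its gene overlaps Tigit, which lies on the other strand. Hic1, a zinc finger repressor, measured 12.7 and 10.6 RPKM without Blimp1 and at most 4.82 RPKM elsewhere, and it overlaps Smg6 on the other strand.

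The 2 serpins were Serpinb6b, at 22.3 and 13.6 RPKM without Blimp1 and at most 2.09 RPKM elsewhere, and Serpinc1, which encodes antithrombin, at 9.50 and 5.90 RPKM against at most 1.24 RPKM. Serpinb6b belongs to a family of near-identical copies. Another 10 members are cytoskeletal, ubiquitin adaptor, kinase or GTPase-related genes. The actin-binding profilin Pfn2 led them, with 15.4 and 19.2 RPKM without Blimp1 and at most 2.79 RPKM elsewhere, a ratio of 5.53. The others were Lmo7 (5.30), Lrrc16a, now Carmil1 (4.55), Asb2 (2.66), Rab37 (2.57), Nek6 (2.20), Kctd17 (2.16), Tbc1d9 (2.16), Marcks (2.13) and Lnx2 (2.01), with that ratio in brackets. The remaining 8 are of other or unknown function. Among them AC159305.1, which matched no gene of the reference, measured 85.9 and 83.0 RPKM without Blimp1, 28.2 and 29.1 RPKM in activated B cells, and 4.22 to 5.66 RPKM elsewhere. C130026I21Rik, which has close paralogs and overlaps another gene, measured 32.8 and 32.3 RPKM without Blimp1 and at most 6.96 RPKM elsewhere. Tmem158, Nkpd1, Cxx1c (now Rtl8c), 5730409E04Rik, Lysmd2 and 2210404O07Rik (now Smim24) had ratios from 2.26 to 4.57.

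The textbook targets that Blimp1 represses were not among the 59. Of 13 measured genes in that list, 0 met the rule, against 0.516% of all genes. Of the 13, 1, Myc, had both Blimp1-deficient libraries above the other 6, against 12.8% of all genes. A list of 13 genes is too short to tell these counts from those shares. Spib, an ETS factor, measured 499.8 and 524 RPKM without Blimp1, 546 and 569 RPKM in activated B cells, and 14.9 and 30.2 RPKM in control pre-plasmablasts. Ciita, the activator of MHC class II genes, measured 78.9 and 71.4 RPKM without Blimp1, between the 143 and 127 RPKM of activated B cells and the 17.3 and 16.8 RPKM of pre-plasmablasts. Spib and Ciita stood near or below activated B cells, whereas the 59 stood above them by the rule.

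The inhibitor experiment gave a test on libraries that the rule did not use. It asks which genes change in Blimp1(GFP/+) pre-plasmablasts when EZH2, the methyltransferase that places the repressive mark H3K27me3, is blocked. These libraries were normalized separately from the 8 above, so levels are compared only within each set. Without a filter, both GSK343 libraries lay above both DMSO libraries for 43 of the 59 genes (72.9%), against 34.9% of 11410 genes, and below both for 2, against 23% of genes. The median difference was 0.44 on the log2(RPKM + 1) scale over the 59 and 0.03 over the 11410.

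Those that reached 1 RPKM in 2 or more of the 4 libraries were tested with limma, 9479 in all, of which 12.7% were called higher and 5.86% lower with GSK343 at a Benjamini-Hochberg adjusted p below 0.05. Of the 59 genes, 36 could be tested, 25 were called higher and 1 lower. For 5 of the 25 (Serpinb6b, Lgals3, Cxx1c, Nid1 and Hic1) only the GSK343 libraries passed the filter, which leaves such genes little room not to differ. Both DMSO libraries reached 1 RPKM for 28 members (47.5%), against 78.7% of 11410 genes. Of these 28 members, 17 were called higher (60.7%), against 11.1% of the 9051 tested genes at that level. Among those with a DMSO mean under 10 RPKM the counts were 13 of 22 members (59.1%), against 13.2% of 4058 genes. Without the first GSK343 library 12 members were called higher, and without the second 13. In such fits the single library left is assumed to vary like the 2 of the other group, and those 5 genes could not be tested.

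**Figure D4:**
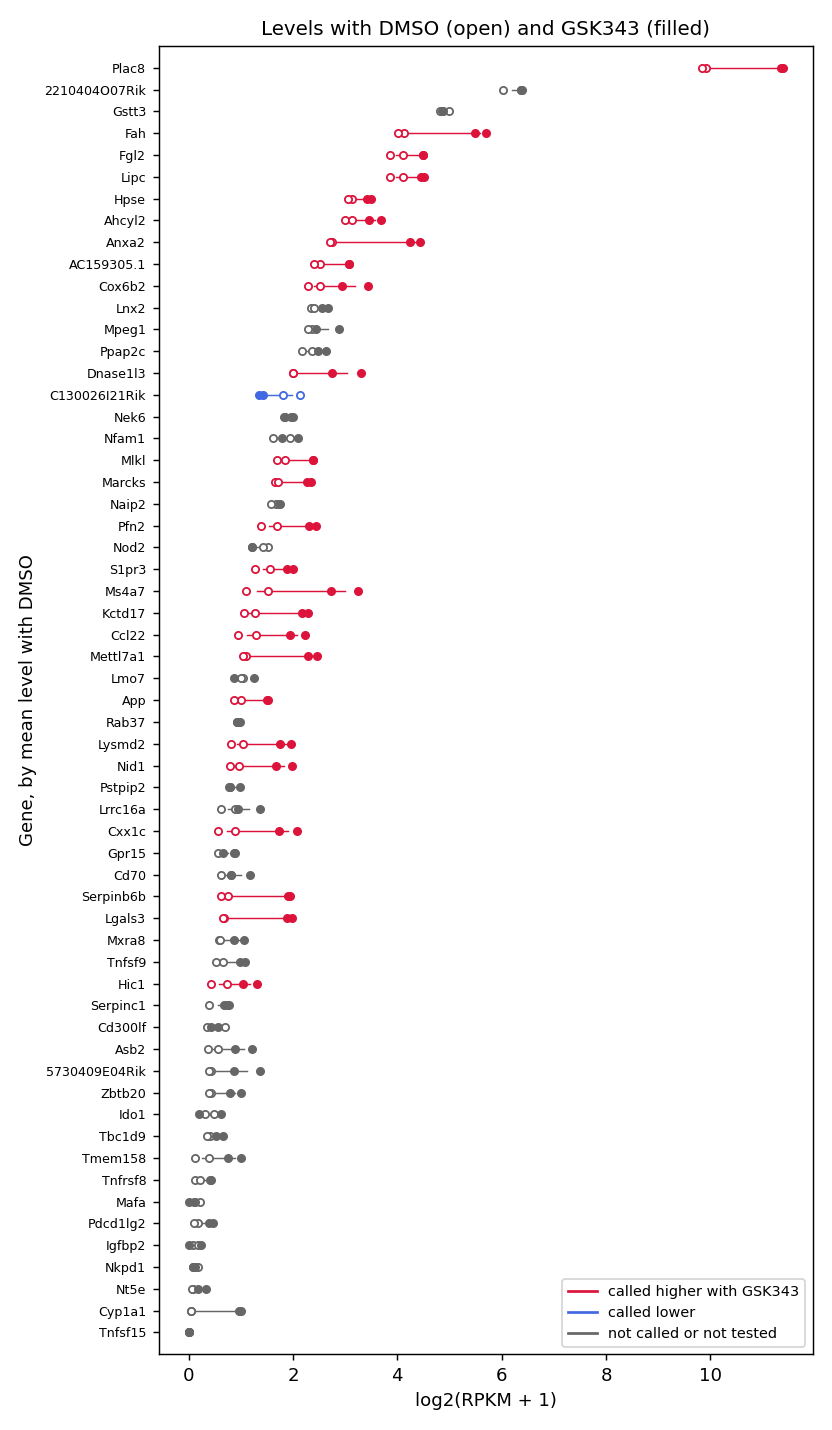
Levels of the 59 genes (rows, ordered by mean level with DMSO) in the 2 DMSO libraries (open circles) and the 2 GSK343 libraries (filled circles), as log2(RPKM + 1), with a line joining the means. The 25 genes called higher are red and C130026I21Rik, the 1 called lower, is blue; Plac8 is the highest in level, and Tnfsf15 is at 0 in all 4.

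On the log2(RPKM + 1) scale the largest rise among the tested members was that of Ms4a7, from 1.87 and 1.15 RPKM with DMSO to 5.65 and 8.51 RPKM with GSK343, a log2 change of 1.68 ± 0.19 (standard error, here and for each log2 change below) with a limma adjusted p of 0.000172. Anxa2 rose from 5.71 and 5.55 RPKM to 20.7 and 17.8 RPKM, a log2 change of 1.61 ± 0.12 with a limma adjusted p of 7.62e-06. Both GSK343 libraries lay above both DMSO libraries for these genes, and without the second GSK343 library Anxa2 (1.71) exceeded Ms4a7 (1.42). Fah rose from 16.6 and 15.1 RPKM to 50.7 and 43.9 RPKM, a log2 change of 1.52 ± 0.10 with a limma adjusted p of 4.97e-06. Plac8 rose from 968 and 918 RPKM to 2604 and 2674 RPKM, a log2 change of 1.48 ± 0.09 with a limma adjusted p of 2.19e-06. Plac8 was the most abundant member here as well as in Blimp1-deficient cells.

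Mettl7a1 rose from 1.14 and 1.06 RPKM to 4.49 and 3.87 RPKM, a log2 change of 1.30. Dnase1l3 rose from 3.03 and 2.98 RPKM to 8.92 and 5.71 RPKM, a log2 change of 1.03. The 2 GSK343 libraries of Dnase1l3 were less alike than those of Mettl7a1, but both exceeded DMSO. Galectin-3 (Lgals3) rose from 0.598 and 0.577 RPKM to 2.97 and 2.68 RPKM, and Serpinb6b from 0.70 and 0.534 RPKM to 2.74 and 2.87 RPKM. Ccl22 rose from 0.932 and 1.45 RPKM to 2.86 and 3.67 RPKM, a log2 change of 0.96 ± 0.16 with a limma adjusted p of 0.00187. Kctd17 and Cxx1c rose by 1.06 and 1.17, and the other members called higher rose by 0.36 (Hpse) to 0.95 (Nid1) on the log2 scale. They were Pfn2, Lysmd2, Cox6b2, Marcks, AC159305.1, Mlkl, Hic1, App, S1pr3, Ahcyl2, Fgl2 and Lipc.

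The single fall was that of C130026I21Rik, from 2.52 and 3.39 RPKM to 1.54 and 1.68 RPKM, a log2 change of -0.59 ± 0.15 with a limma adjusted p of 0.0174. It was not called without the second DMSO library, or without either GSK343 library. Of the tested members 10 were not called: Nod2, Gstt3, Nek6, Lmo7, Naip2, Nfam1, 2210404O07Rik, Lnx2, Ppap2c and Mpeg1. Their log2 differences ran from -0.27 (Nod2) to 0.34 (Mpeg1), and a p above the threshold does not show that a gene stayed the same. With each of the 4 libraries left out in turn, 11 of the 26 called genes were called every time (the 5 genes that passed the filter only through GSK343 could not be): AC159305.1, Anxa2, Ccl22, Dnase1l3, Fah, Kctd17, Lysmd2, Mettl7a1, Ms4a7, Pfn2 and Plac8.

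The other 23 members were too low in the inhibitor experiment to be tested, with a highest library from 0 to 1.58 RPKM. Cyp1a1 measured 0.0275 and 0.0324 RPKM with DMSO and 1.01 and 0.959 RPKM with GSK343. Both GSK343 libraries stood above both DMSO libraries for Cyp1a1 and for 12 others of the 23. The share was 34.9% over 11410 genes at all levels, and it was not counted among genes as low as these. Tnfsf15 was listed at 0 in all 4 libraries. Cd300lf measured 0.284 and 0.623 RPKM with DMSO and 0.484 and 0.342 RPKM with GSK343, with overlapping groups, and so did Gpr15 at 0.476 and 0.842 RPKM against 0.827 and 0.572 RPKM. Tnfsf9 measured 0.436 and 0.588 RPKM with DMSO and 0.989 and 1.12 RPKM with GSK343. Mafa, at up to 0.168 RPKM, and Igfbp2, at up to 0.175 RPKM, stayed near 0 in both. Of the 4 genes with the highest ratios in Blimp1-deficient cells, Cyp1a1, Igfbp2, Tnfsf15 and Cd300lf, none exceeded 1.01 RPKM in any library here. Mettl7a1 and Dnase1l3, next in ratio, were tested and called higher.

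Lists of other genes give the setting of these calls. Of all 9479 tested genes, 12.7% were called higher and 5.86% lower with GSK343. Of 31 tested migration and adhesion genes, 17 were called higher with GSK343 and 3 lower, and of 12 cytokines and chemokines 6 were called higher and 2 lower. Of 11 tested textbook Blimp1 targets, 5 were called higher. Of 35 cell cycle genes 1 was called higher and 7 lower. Marker lists of other cell types moved as well: 4 of 6 tested T cell markers were called higher and 1 lower, 3 of 7 myeloid markers higher and 2 lower, 1 of 5 dendritic cell markers in each direction, and 1 of 2 erythroid markers and the 1 natural killer marker tested were called higher. The summed myeloid markers measured 98.9 and 89.8 RPKM with DMSO and 129.1 and 119.5 RPKM with GSK343, the summed T cell markers 105 and 107 RPKM against 117.2 and 115.2 RPKM, and their part in the members' rise was not tested.

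In plasma cells taken from mice, the members reached 1 RPKM less often than measured genes at large. All 59 genes had a value there after the gene names were realigned, as described under the processing. Both plasma cell libraries reached 1 RPKM for 40 members (67.8%), against 83.6% of 11362 genes, and 5 RPKM for 26 (44.1%), against 64.2%. Both libraries stayed under 1 RPKM for 17. The median level was 4.97 RPKM over the members and 10.1 RPKM over the 11362 genes. Plasma cell and inhibitor libraries were normalized separately, so levels set side by side here carry no test.

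**Figure D5:**
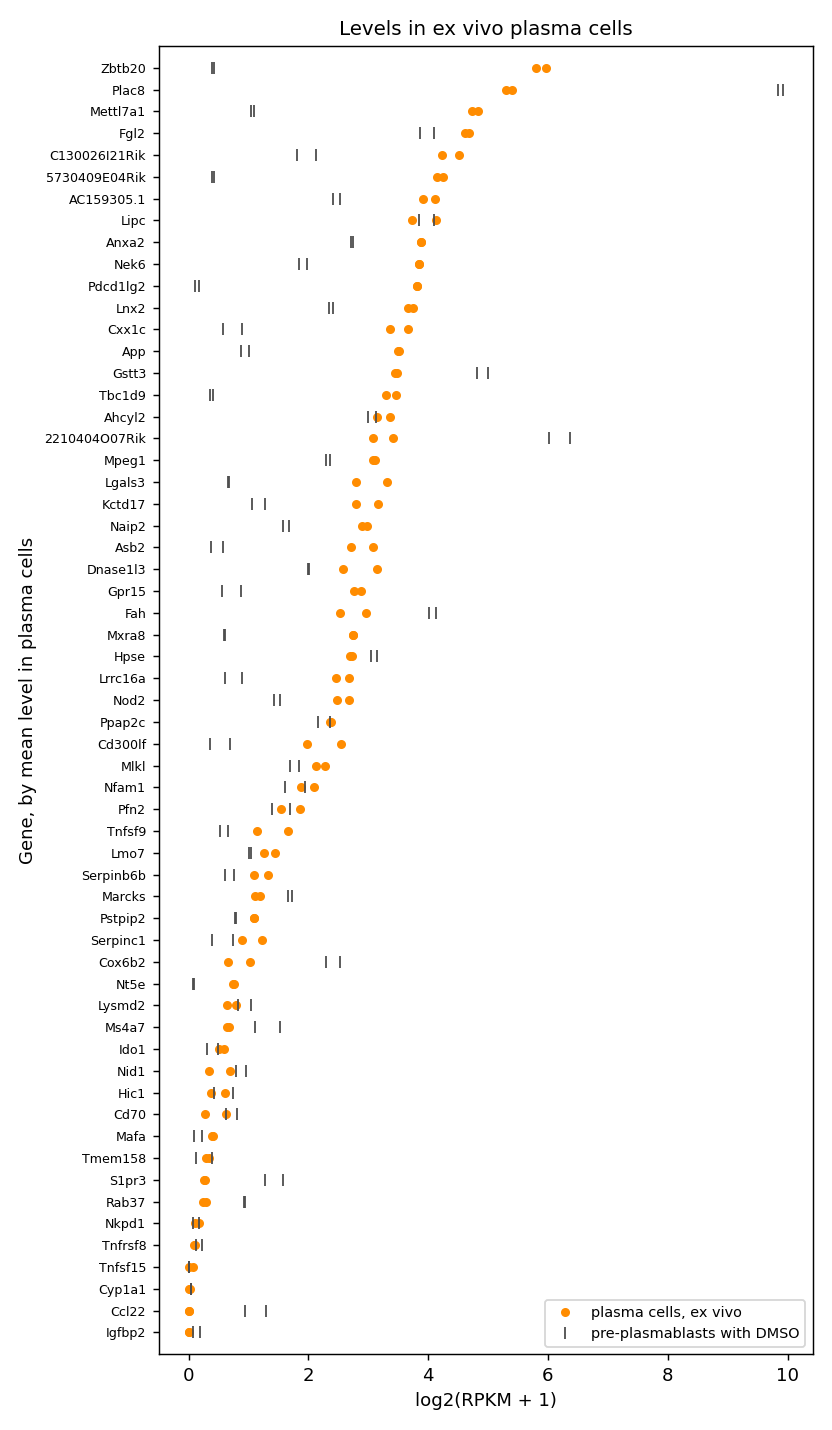
Levels of the 59 genes (rows, ordered by mean level in plasma cells) in the 2 plasma cell libraries (orange) and, for orientation, the 2 DMSO pre-plasmablast libraries (black ticks), as log2(RPKM + 1). Zbtb20 is highest in plasma cells and near 0 with DMSO, while Plac8 is far higher with DMSO. Control pre-plasmablasts, not drawn, had 7.01 and 6.92 RPKM of Zbtb20. The lowest genes in plasma cells include Ccl22, Cyp1a1 and Tnfsf15.

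Zbtb20 was the highest member in plasma cells, at 54.9 and 61.3 RPKM, whereas with DMSO it measured 0.343 and 0.318 RPKM. Plac8 followed at 38.3 and 41.1 RPKM, then Mettl7a1 at 27.6 and 25.7 RPKM, Fgl2 at 24.8 and 23.4 RPKM and C130026I21Rik at 21.9 and 17.7 RPKM. Both libraries lay close together for each of these 5 genes. Pdcd1lg2 measured 13.1 RPKM in both plasma cell libraries and 0.135 and 0.0795 RPKM with DMSO. Anxa2 measured 13.7 RPKM in both, Nek6 13.3 and 13.4 RPKM, and App 10.4 and 10.3 RPKM. Gpr15, near 0 with DMSO, measured 6.38 and 5.77 RPKM in plasma cells, and Cd300lf 4.81 and 2.94 RPKM. In control pre-plasmablasts, normalized separately, Zbtb20 measured 7.01 and 6.92 RPKM, Gpr15 4.84 and 3.88 RPKM, and Cd300lf 6.63 and 5.18 RPKM. The low levels of these genes with DMSO thus do not hold for both sets of pre-plasmablasts.

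Other members were absent or nearly so in plasma cells. Ccl22 and Igfbp2 were listed at 0 in both libraries, and Cyp1a1 and Tnfsf15 at 0 in 1 library and at 0.0212 and 0.0507 RPKM in the other. Tnfrsf8 measured 0.0716 and 0.0745 RPKM, S1pr3 0.215 and 0.198 RPKM, Cd70 0.538 and 0.210 RPKM, and Ms4a7 0.602 and 0.564 RPKM. By role, the median plasma cell level was 0.462 RPKM for the 9 genes that act on T cells, 4.97 RPKM for the 11 innate and myeloid genes, and 6.39 RPKM for the 9 enzymes. It was 0.410 RPKM for the 3 transcription factors, 1.22 RPKM for the 2 serpins and 5.56 RPKM for the 7 receptors and matrix proteins. The 10 cytoskeletal and related genes had a median of 5.73 RPKM and the 8 others one of 9.49 RPKM. Within the group of genes that act on T cells, Pdcd1lg2 and Fgl2 were the exceptions, with Tnfsf9 next at 1.20 and 2.16 RPKM.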

How the data were processed

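The authors deposited RPKM values for each of the 14 RNA libraries: GC-normalized RPKM, per the file names, for 8, and RPKM without that step for 4 inhibitor and 2 plasma cell libraries. The tools named in the submitters' processing notes, without a role, are DESeq 1.8.3, SICER, HTSeq 0.5.3 and TopHat 1.4.1, and the build is mm9. Neither the annotation nor the use of strand in counting is given in the sources used here. The other 24 samples are not analysed here. The members and lists were chosen with earlier results of these data known; the genes named are those with the highest ratios, calls or plasma cell levels, those near a threshold, and list or family members.

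Names occurring more than once were left out. In the plasma cell files 5 read-counter summary names among the gene names shift the names against their values. They were dropped and the names rejoined (correlation of log2 values with a DMSO library 0.325 before, 0.901 after). The letters NA are missing from names there, and 325 names, with 2 members (Dnase1l3, Naip2), were restored, a choice made after seeing the data.

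GSK343 was tested against DMSO on log2(RPKM + 1) with limma 3.58.1 in R 4.3.3 (trend, two-sided). Fold changes on this scale understate changes of low genes. Read depth is unknown for the GC-normalized libraries; steps among low values gave depths of 0.848, 1.01 and 0.832 relative to the first DMSO library, and 0.962 for the second plasma cell library relative to the first. Figures used matplotlib 3.10.9, tables pandas 2.3.3.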

Additional observations from a re-analysis of the deposited data

How the results depend on the processing

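The number of genes that met the rule was 95 with a minimum of 2 RPKM, 134 with a ratio of 1.5 and 30 with a ratio of 3. It was 57 after median-of-ratios scaling, 56 of them shared with the 59, and 59 to 85 when 1 of the 8 libraries was left out. Within the first libraries of the groups alone, which share a library number series, 111 genes met it. Within the second ones alone 99 did, with 74 in both. Leaving out libraries can only add genes under this rule, so the 59 are kept each time by construction.

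Members called higher with GSK343 were 24 or 25 of 59 with either other pseudocount, with scaling or without the trend, 17 when both DMSO libraries had to reach 1 RPKM (added after seeing the data), and 11 with a filter of 5 RPKM, which left fewer to test. C130026I21Rik was not tested under that filter, 0 members were called lower by limma, and 779 genes were called higher. With no filter, limma called 0 members and 0 genes in either direction, although 32 members were higher and 3629 of 20650 genes differed at an unadjusted p below 0.05; the cause was not tested. Leaving out 1 library gave 12 to 26 members higher and 0 to 1 lower, and 541 to 1227 genes higher and 190 to 728 lower. No member's call changed direction. No paired analysis was possible because the labels give these groups no shared replicate numbers.

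Members at 1 RPKM in both plasma cell libraries were 37 with the names as deposited, 38 with no names restored, and 41 with either library alone, against 40.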
